A study of Mus musculus with 4 samples.

Results

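Ighv1 genes are the V segments of the heavy chain locus whose symbols begin with Ighv1 followed by a hyphen and a number. Of the 55401 genes in the table, 93 matched that pattern (92 symbols, since Ighv1-13 has 2 identifiers), and 55 of them had 10 or more reads when the 4 libraries were summed. The use of these 55 genes in each library is described here. CD45, the surface protein that marks leukocytes, was used to sort immune cells from the mouse dura mater (the outer layer of the meninges), and total RNA was sequenced in 2 libraries per group. The mice were wild-type (male C57BL/6J per the study's methods) and received 2 μl of an AAV9 vector into the cisterna magna at 4 wk of age. AAV-VEGF-C carried full-length mouse VEGF-C, the growth factor of lymphatic vessels. AAV-Control, which the study also calls AAV-CTRL, carried a soluble part of its receptor VEGFR-3 that does not bind VEGF-C, so that both groups had received a vector. The study's methods give 10 to 12 mice for each AAV-treated group, taken here as the pool behind each library. Values of single animals are thus not known, and a p value measures the spread between pools.

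The variable region of an antibody heavy chain is assembled in each developing B cell by joining a V, a D, and a J segment, and the V segment encodes the first 2 of the loops that touch antigen. Ighv1 is the largest V family of C57BL/6 mice and fills much of the part of the locus that lies farthest from the D, J, and constant segments. A B cell that becomes a plasma cell fills its cytoplasm with the RNA of its own rearranged chain, so reads of a V gene in bulk RNA can stand for many B cells or for a few plasma cells. In these bulk libraries, fewer cells of a type and less RNA per cell cannot be told apart.

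All 93 genes had the same identifier in GENCODE M21, where they lie on chromosome 12 of GRCm38 between positions 114351705 and 116010093. The 55 kept genes are all on the minus strand, 50 of them are annotated as functional V genes, and 5 as V pseudogenes. Of the other 38, 17 had up to 7 reads in all and 21 had 0 reads. A total of 45 of the 55 passed the filter on low counts and were tested. The V exon was 305 bases long in 47 of the 55. Read shares are not corrected for length, and the length behind the TPM values, which are scaled for it, differed also between members with this exon length, so that the order of members by reads and by TPM can differ. The members are close in sequence. The V exon of a kept gene was 82.3 to 100% identical to that of its nearest relative in the family, with a median of 96.1%, and 36 of the 55 had a relative over 95% identical.

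The sequences below are germline V exon sequence of the members that the results turn on. Each line spans bases 70 to 180 of the 294 bases that encode the mature V region, read 5′ to 3′ on the minus strand, from GENCODE M21 transcripts on GRCm38. Capitals mark the codons of the first and the second antigen-contacting loops. The first 4 were each the most abundant member of 1 library.
Ighv1-12 (chr12:114615964-114616074): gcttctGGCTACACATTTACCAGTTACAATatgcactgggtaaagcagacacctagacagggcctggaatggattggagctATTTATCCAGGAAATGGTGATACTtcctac
Ighv1-82 (chr12:115952652-115952762): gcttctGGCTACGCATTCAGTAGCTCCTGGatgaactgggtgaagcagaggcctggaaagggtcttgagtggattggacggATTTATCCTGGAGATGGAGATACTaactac
Ighv1-9 (chr12:114583683-114583793): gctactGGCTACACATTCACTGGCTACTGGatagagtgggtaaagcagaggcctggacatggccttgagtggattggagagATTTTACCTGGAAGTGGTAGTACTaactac
Ighv1-26 (chr12:114788486-114788596): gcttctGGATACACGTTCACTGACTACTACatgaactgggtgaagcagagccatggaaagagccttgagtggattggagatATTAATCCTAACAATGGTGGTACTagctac
Along the mature V region, Ighv1-82 and Ighv1-9 were 88.1% identical, and Ighv1-12 and Ighv1-26 were 83.0% identical with 15 of their 50 differences in the capitals.

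The next 6 had higher levels in both AAV-VEGF-C libraries than in both AAV-Control libraries, and Ighv1-84, shown last, was the only kept member with lower levels in both.
Ighv1-75 (chr12:115834064-115834174): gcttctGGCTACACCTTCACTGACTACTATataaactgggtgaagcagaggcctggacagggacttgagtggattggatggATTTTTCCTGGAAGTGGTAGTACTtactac
Ighv1-22 (chr12:114746387-114746497): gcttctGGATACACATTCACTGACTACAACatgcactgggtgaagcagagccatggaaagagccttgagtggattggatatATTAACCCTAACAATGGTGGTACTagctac
Ighv1-34 (chr12:114851304-114851414): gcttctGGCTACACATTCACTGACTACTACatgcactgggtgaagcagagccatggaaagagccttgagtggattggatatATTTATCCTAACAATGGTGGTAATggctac
Ighv1-20 (chr12:114723886-114723996): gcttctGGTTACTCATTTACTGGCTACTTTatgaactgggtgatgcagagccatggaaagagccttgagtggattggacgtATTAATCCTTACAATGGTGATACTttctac
Ighv1-53 (chr12:115158517-115158627): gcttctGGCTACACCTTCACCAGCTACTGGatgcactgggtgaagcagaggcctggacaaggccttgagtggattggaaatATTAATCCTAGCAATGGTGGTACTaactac
Ighv1-72 (chr12:115758098-115758208): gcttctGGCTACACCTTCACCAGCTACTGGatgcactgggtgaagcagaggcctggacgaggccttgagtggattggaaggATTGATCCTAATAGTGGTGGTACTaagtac
Ighv1-84 (chr12:115980816-115980926): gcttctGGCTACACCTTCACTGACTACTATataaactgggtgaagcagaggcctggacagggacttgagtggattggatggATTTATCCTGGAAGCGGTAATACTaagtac
Ighv1-75 and Ighv1-84, the member with the smallest p and the member with the lowest fold change, were 95.9% identical over the mature V region, with an identical first loop and 3 of 12 differences in the loops. Ighv1-22 and Ighv1-34 differed at 10 bases, 5 of them in the loops. Ighv1-53 and Ighv1-72 differed at 12 bases, 4 of them in the loops, and have the same first loop.

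AAV-Control 1 and 2 had 46409685 and 33336026 assigned reads, and AAV-VEGF-C 1 and 2 had 38051943 and 32520649. AAV-Control 1 had the most reads and the fewest genes with a read, 20990 against 29221 to 37512 in the other libraries. Markers of cells outside the CD45 sort were present in all libraries: the 12 stromal and endothelial genes listed summed to 711 and 1119 CPM (counts per 1000000 reads after TMM scaling) in AAV-Control and to 448 and 621 CPM in AAV-VEGF-C, and none of the 12 was at 0 in any library. B cell markers were detected throughout, with 20 of 20 listed genes above 0 in every library.

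Whether VEGF-C changed how much of the RNA came from Ighv1 genes was asked first. AAV-Control 1 had 9341 Ighv1 reads, AAV-Control 2 had 14360, AAV-VEGF-C 1 had 41910, and AAV-VEGF-C 2 had 22235. As shares of all assigned reads these were 0.0201% (95% Wilson interval, 0.0197 to 0.0205), 0.0431% (0.0424 to 0.0438), 0.110% (0.109 to 0.111), and 0.0684% (0.0675 to 0.0693). Both AAV-VEGF-C libraries were above both AAV-Control libraries. The mean share was 0.0316% ± 0.0162 (SD, n = 2) in AAV-Control and 0.0893% ± 0.0295 (SD, n = 2) in AAV-VEGF-C, a ratio of 2.82 (p = 0.33, exact two-sided permutation test over libraries). That p is the smallest that 2 libraries against 2 can give. The intervals cover counting error only, and they treat reads as independent, although fragments were amplified by PCR. They are far narrower than the gap between libraries of the same group.

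The other heavy variable genes, 92 in the table, differed to a similar degree. Their share of all reads was 0.0147% and 0.0190% in AAV-Control and 0.0467% and 0.0425% in AAV-VEGF-C, a ratio of 2.65 (p = 0.33, exact two-sided permutation test). Ighv1 genes held 57.8% and 69.4% of all heavy variable reads in AAV-Control, and 70.2% and 61.6% in AAV-VEGF-C. These ranges overlap, with means of 63.6% ± 8.16 and 65.9% ± 6.08 (SD, n = 2 each; p = 0.667, exact two-sided permutation test). The difference was 2.35 percentage points, and it was −3.42 without AAV-Control 1 and −1.94 without AAV-VEGF-C 1. Of all immunoglobulin reads, Ighv1 genes held 6.597% and 7.57% in AAV-Control and 8.84% and 5.81% in AAV-VEGF-C, which overlap as well.

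**Figure D1:**
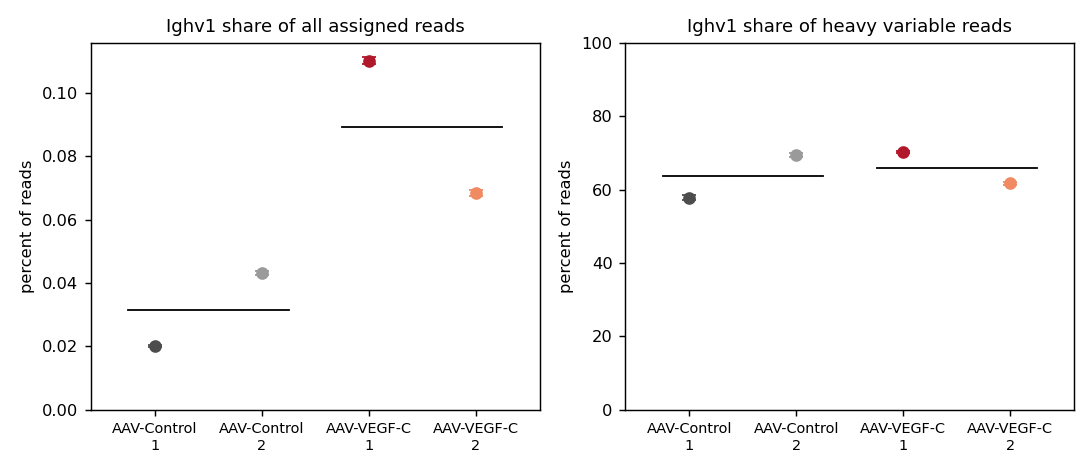
Ighv1 reads as a percentage of all assigned reads (left) and of heavy variable reads (right) in the 4 libraries. Points are libraries with 95% Wilson intervals, and lines are group means. On the left both AAV-VEGF-C libraries (0.110% and 0.0684%) are above both AAV-Control libraries (0.0201% and 0.0431%), and on the right the groups overlap.

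The number of Ighv1 genes in use did not separate the groups. At least 1 read was found for 39 and 60 members in AAV-Control and for 69 and 59 in AAV-VEGF-C, and at least 10 reads for 34, 41, 46, and 41. When every library was thinned to the 9341 Ighv1 reads of AAV-Control 1, the expected numbers were 39, 57.5, 57.3, and 53.2 (p = 1, exact two-sided permutation test). AAV-Control 1 thus had the lowest number also at an equal number of Ighv1 reads, and it was the library with the fewest genes detected over the whole table. Of the 55 kept members, 16 had 0 reads in AAV-Control 1, 3 in AAV-Control 2, 0 in AAV-VEGF-C 1, and 2 in AAV-VEGF-C 2.

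How evenly the members were used was measured by the effective number of genes, the exponential of the Shannon entropy of the read shares, which equals the number of genes if all are used alike. It was 22 and 12.0 in AAV-Control and 23.9 and 17.7 in AAV-VEGF-C, and the group ranges overlap (p = 0.667, exact two-sided permutation test). Without AAV-Control 2, the library with the lowest value, the difference of the means went from 3.76 to −1.27.

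A different member led in each library. In AAV-Control 1 it was Ighv1-12, with 10.4% of the Ighv1 reads (95% Wilson interval, 9.81 to 11.1), followed by Ighv1-80 with 9.51% and Ighv1-64 with 8.33%. In AAV-Control 2 it was Ighv1-82, with 38.3% (37.5 to 39.1), followed by Ighv1-50 with 16.3% and Ighv1-9 with 4.23%. The second control pool thus took more than 50% of its Ighv1 reads from a pair of genes.

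In AAV-VEGF-C 1 the leader was Ighv1-9, with 12.2% (11.9 to 12.5), followed by Ighv1-55 with 9.83% and Ighv1-64 with 9.06%. In AAV-VEGF-C 2 it was Ighv1-26, with 25.1% (24.5 to 25.7), followed by Ighv1-39 with 13.2% and Ighv1-82 with 7.73%. By TPM the same 4 genes led and the same 3 genes came first in 3 of the libraries. In AAV-Control 1, Ighv1-64 (62.3 TPM) ranked behind Ighv1-9 (71.8 TPM), Ighv1-39 (68.1 TPM), and Ighv1-82 (62.5 TPM). By reads, the first 10 genes of each library together held 70.5% and 80.0% of the Ighv1 reads in AAV-Control and 67.2% and 72.8% in AAV-VEGF-C, and 3 genes, Ighv1-80, Ighv1-82, and Ighv1-9, were among the first 10 in all 4 libraries.

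Libraries of the same group did not resemble each other more than libraries of different groups. The use shared by a pair of libraries, the sum over genes of the lower of the 2 shares, was 40.3% between the AAV-Control libraries and 50.2% between the AAV-VEGF-C libraries. Between groups it ranged from 43.2% to 55.8%. Spearman's rho of the shares across the 55 genes was 0.610 to 0.688 over the 6 pairs of libraries, a description only, since these genes share their libraries and part of their reads. Of the first 10 genes of a library, 5 or 6 were also among the first 10 of any other library.

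**Figure D2:**
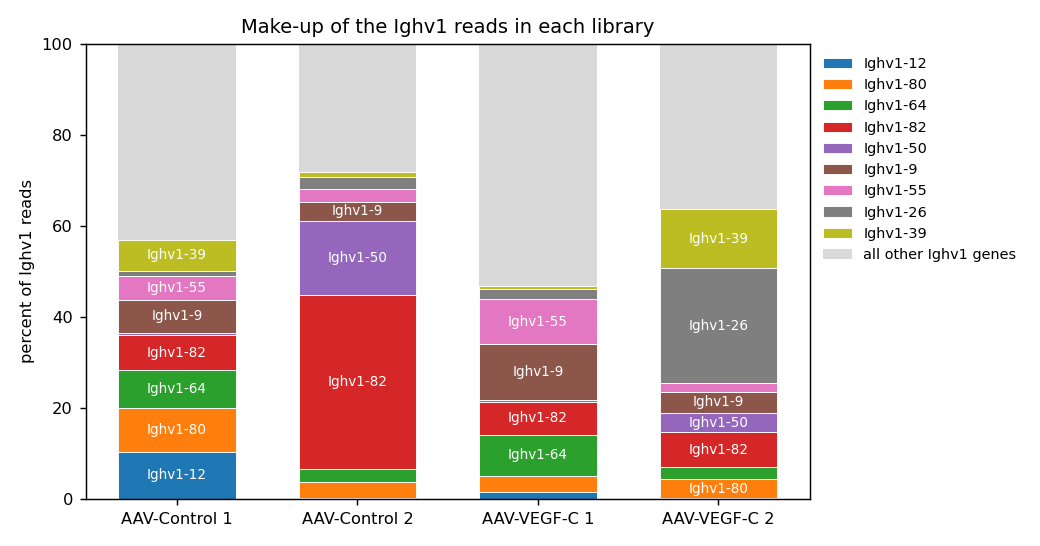
Percentage of the Ighv1 reads of each library that came from the 9 genes that were among the first 3 in any library, with all other Ighv1 genes in gray. Ighv1-82 fills 38.3% of the bar of AAV-Control 2 and Ighv1-26 fills 25.1% of that of AAV-VEGF-C 2, whereas no gene exceeds 12.2% in AAV-Control 1 or AAV-VEGF-C 1.

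Single members were then compared between the groups. With edgeR (quasi-likelihood test, Benjamini-Hochberg adjustment) over 19806 genes, 0 of the 45 tested members had an adjusted p under 0.05, as was the case for all genes (0%). At an unadjusted p under 0.05, 18 members were higher in AAV-VEGF-C (1.46% of all genes tested) and 1 was lower (1.18%). DESeq2, the tool the study names, gave an adjusted p under 0.05 to 8 higher members (0.32% of all genes) and to 1 lower member (0.0774%), and when it was limited to the genes edgeR tested it did so for 10 and 1, of 72 over all genes. The count of members past the adjusted threshold of edgeR was 24 when AAV-Control 1 was left out (412 over all genes), 30 without AAV-Control 2 (2058), 0 without AAV-VEGF-C 1 (2), and 10 without AAV-VEGF-C 2 (65). With the experiment number as a block it was 3 (Ighv1-26, Ighv1-4, and Ighv1-69), of 11 over all genes.

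Both AAV-VEGF-C libraries were above both AAV-Control libraries in 23 of the 45 tested members (16.8% of all genes tested) and below them in 1 (15.2%). Of the 55 kept members the numbers were 26 and 1, and the groups overlapped in 28. The log2 fold changes ran from −2.80 to 7.75 with a median of 1.54, against a median of 0.0034 over all genes tested, and 40 of 45 were above 0. The median was 2.82 without AAV-Control 2 and 1.02 without AAV-VEGF-C 1. The filter on low counts admits members that are high in a single group, so these counts describe the tested members and not the whole family.

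**Figure D3:**
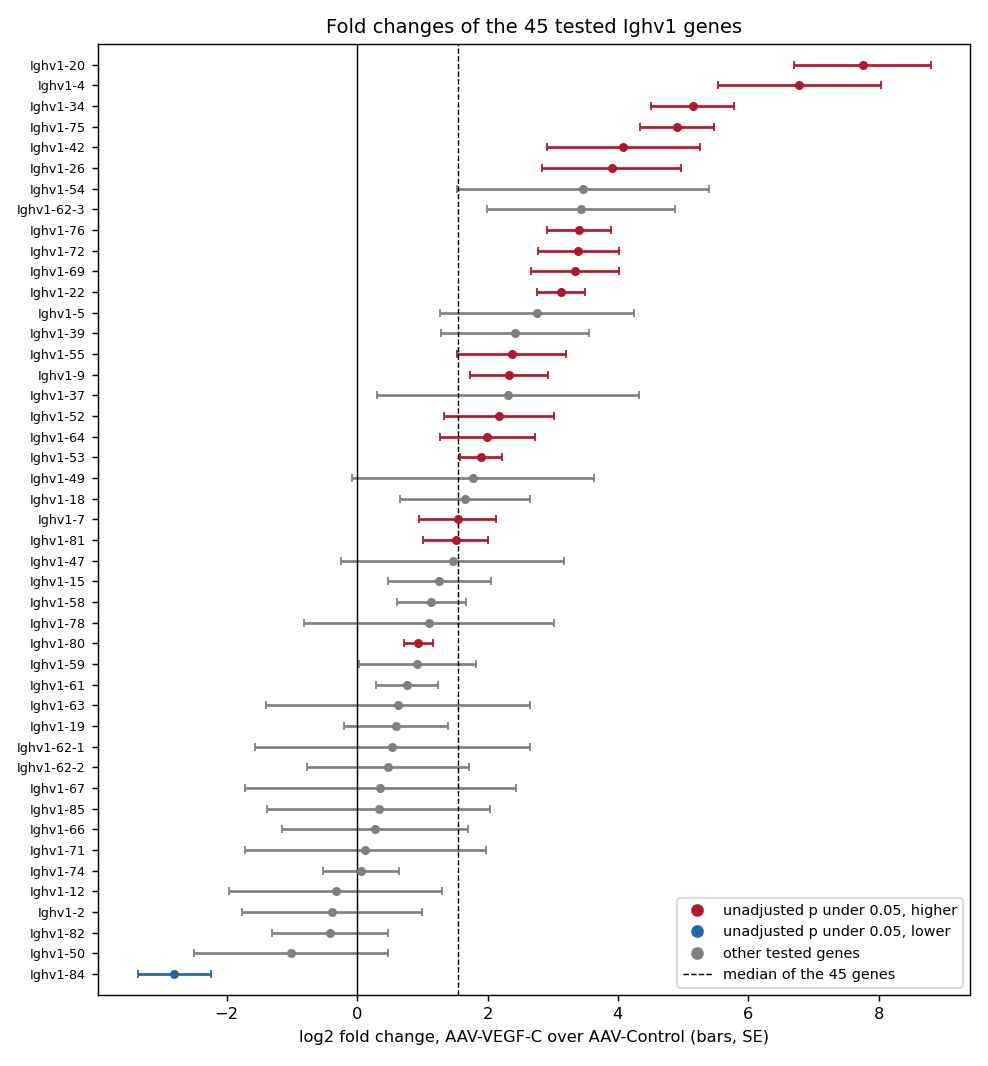
Log2 fold changes (AAV-VEGF-C over AAV-Control) of the 45 tested Ighv1 genes with their SE from edgeR's quasi-likelihood fit. Red and blue points have an unadjusted p under 0.05, the dashed line is the median of 1.54, and Ighv1-84 (−2.80) is the only blue point.

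Ighv1-75 had the smallest p of the family. Its levels were 0.670 and 1.36 CPM in AAV-Control and 42.0 and 18.1 CPM in AAV-VEGF-C, from 29.6, 46.96, 1644, and 574 reads. The groups were far apart, with means of 1.02 ± 0.491 and 30.1 ± 16.9 CPM (SD, n = 2 each). The log2 fold change was 4.90 (SE 0.57; adjusted p = 0.331, edgeR quasi-likelihood, Benjamini-Hochberg), and DESeq2 gave an adjusted p of 1.7e-24.

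Ighv1-84, near the far end of the locus and the closest relative of Ighv1-75, went the other way. It had 187 and 173 reads in AAV-Control and 35 and 13 reads in AAV-VEGF-C, or 4.18, 5.02, 0.895, and 0.410 CPM. The lower of the control values was more than 4 times the higher of the AAV-VEGF-C values. The log2 fold change was −2.80 (SE 0.56; adjusted p = 0.999 in edgeR quasi-likelihood with Benjamini-Hochberg, and 0.0042 in DESeq2). Both genes had values that were not whole numbers, and whether reads had been divided between them was not tested, so the values of this near-identical pair are uncertain.

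Ighv1-22 and Ighv1-34, which differ at 10 bases, were both higher. Ighv1-22 was at 2.01 and 3.80 CPM in AAV-Control and at 28.3 and 22.5 CPM in AAV-VEGF-C, with little spread within the groups. Its log2 fold change was 3.13 (SE 0.37; adjusted p = 0.331, edgeR quasi-likelihood, Benjamini-Hochberg; 2.1e-14 in DESeq2). Ighv1-34 was rarer, with 3.96, 8.34, 190, and 206 reads. Its log2 fold change was 5.15 (SE 0.63; adjusted p = 0.343 in the same edgeR test, 4.6e-10 in DESeq2).

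Ighv1-20 was close to absent from the controls, with 0 and 2 reads, and had 346 and 120 reads in AAV-VEGF-C. It was at 8.85 and 3.78 CPM in AAV-VEGF-C. Taking 3 reads as the limit in each control library, its AAV-VEGF-C mean was at least 81.9-fold higher, and the bound is lower for AAV-VEGF-C 2 alone. Its near-identical relative Ighv1-37, which differs at 4 bases of the V exon, did not follow it. Ighv1-37 had 66 and 0 reads in AAV-Control and 288 and 3.02 in AAV-VEGF-C, so that 1 library of each group held nearly all of its reads.

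Ighv1-72 is the V gene known for the response of C57BL/6 mice to the hapten NP. It was at 2.26 and 6.53 CPM in AAV-Control and at 64.5 and 27.3 CPM in AAV-VEGF-C. The groups did not overlap, and the log2 fold change was 3.40 (SE 0.63; adjusted p = 0.903, edgeR quasi-likelihood, Benjamini-Hochberg; 0.054 in DESeq2 over every gene with a read, and 6.1e-08 in DESeq2 over the genes edgeR tested). Ighv1-62-3, which differs from it at 3 bases, had 0, 16.3, 106, and 70.8 reads and was likewise higher in both AAV-VEGF-C libraries. Ighv1-53, with the same first loop, was at 8.31, 4.79, 21.7, and 27.3 CPM, and its groups were apart as well. Its log2 fold change was 1.90 (SE 0.32; adjusted p = 0.700, edgeR quasi-likelihood, Benjamini-Hochberg; 3.6e-05 in DESeq2).

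Ighv1-76, Ighv1-69, and Ighv1-4 were also apart between the groups, with AAV-VEGF-C 1 the highest library for each. Ighv1-76 was at 1.97, 3.14, 37.6, and 15.97 CPM. Its log2 fold change was 3.40 (SE 0.49; adjusted p = 0.469, edgeR quasi-likelihood, Benjamini-Hochberg; 1.1e-12 in DESeq2). Ighv1-69 was at 4.31, 1.66, 45.9, and 14.9 CPM. Its log2 fold change was 3.34 (SE 0.68; adjusted p = 0.999 in the same edgeR test, 0.12 in DESeq2). Ighv1-4 was at 0.491, 0.145, 66.6, and 7.28 CPM, and most of its mean came from AAV-VEGF-C 1. Its log2 fold change was 6.79 (SE 1.25; adjusted p = 0.903 in the same edgeR test, 0.0026 in DESeq2), and 4.49 without that library. Ighv1-7, which differs from Ighv1-4 at 7 bases, was at 2.35, 6.74, 8.38, and 18.0 CPM, with AAV-VEGF-C 2 the highest.

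Ighv1-80 had the smallest SE of the 45 tested members. Its levels were 19.8 and 15.4 CPM in AAV-Control and 37.7 and 29.9 CPM in AAV-VEGF-C, and the groups did not overlap. The log2 fold change was 0.94 (SE 0.22; adjusted p = 0.999, edgeR quasi-likelihood, Benjamini-Hochberg). It is the smallest change among the members with an unadjusted p under 0.05.

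In several abundant members a single AAV-VEGF-C library set the group mean. Ighv1-26 was at 2.68 and 10.8 CPM in AAV-Control and at 24.4 and 176 CPM in AAV-VEGF-C, where the second library held most of it. Its log2 fold change was 3.90 (SE 1.06; adjusted p = 0.999, edgeR quasi-likelihood, Benjamini-Hochberg; 0.477 in DESeq2) and 1.87 without AAV-VEGF-C 2. Ighv1-18, its nearest relative with 8 differences, was at 2.95, 17.4, 54.0, and 9.80 CPM, with the groups overlapping and AAV-VEGF-C 1 the highest. Its log2 fold change was 1.66 (SE 0.996) and −0.034 without AAV-VEGF-C 1.

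Ighv1-9 was at 14.9 and 17.7 CPM in AAV-Control and at 130.3 and 33.5 CPM in AAV-VEGF-C, a log2 fold change of 2.33 (SE 0.60) that was 1.05 without AAV-VEGF-C 1. Ighv1-55 was at 10.9, 12.2, 105, and 13.7 CPM, and its log2 fold change went from 2.37 to 0.26 without AAV-VEGF-C 1. Ighv1-64 was at 17.4, 11.4, 97.1, and 18.0 CPM, and its log2 fold change went from 2.00 to 0.33 without that library. For the last pair, the second AAV-VEGF-C library was thus close to the controls. Ighv1-39 was high in AAV-VEGF-C 2 instead, at 14.0 and 4.38 CPM in AAV-Control and 6.83 and 92.3 CPM in AAV-VEGF-C, and its log2 fold change of 2.42 (SE 1.14) was −0.43 without that library.

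The controls had dominant members of their own. Ighv1-82 was at 16.04 and 159.5 CPM in AAV-Control and at 77.0 and 54.2 CPM in AAV-VEGF-C, so that both AAV-VEGF-C libraries fell between the controls. Its log2 fold change was −0.42 (SE 0.89), and 2.04 without AAV-Control 2. Ighv1-50 was at 1.27, 67.9, 5.34, and 28.9 CPM, with a log2 fold change of −1.01 (SE 1.49) that was 3.76 without AAV-Control 2.

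Ighv1-12 was high in 1 library of each group, at 21.7 and 0.523 CPM in AAV-Control and 16.9 and 0.819 CPM in AAV-VEGF-C. Its log2 fold change of −0.33 (SE 1.63) was 4.05 without AAV-Control 1. The direction of Ighv1-82, Ighv1-50, and Ighv1-12 was also positive in limma-voom and with the experiment number as a block, so no direction is given for these genes. With values under 3 reads set to that floor, 10 of the 55 kept members differed at least 10-fold between the AAV-Control libraries and 13 between the AAV-VEGF-C libraries, and 40 were higher in AAV-VEGF-C 1 than in AAV-VEGF-C 2.

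**Figure D4:**
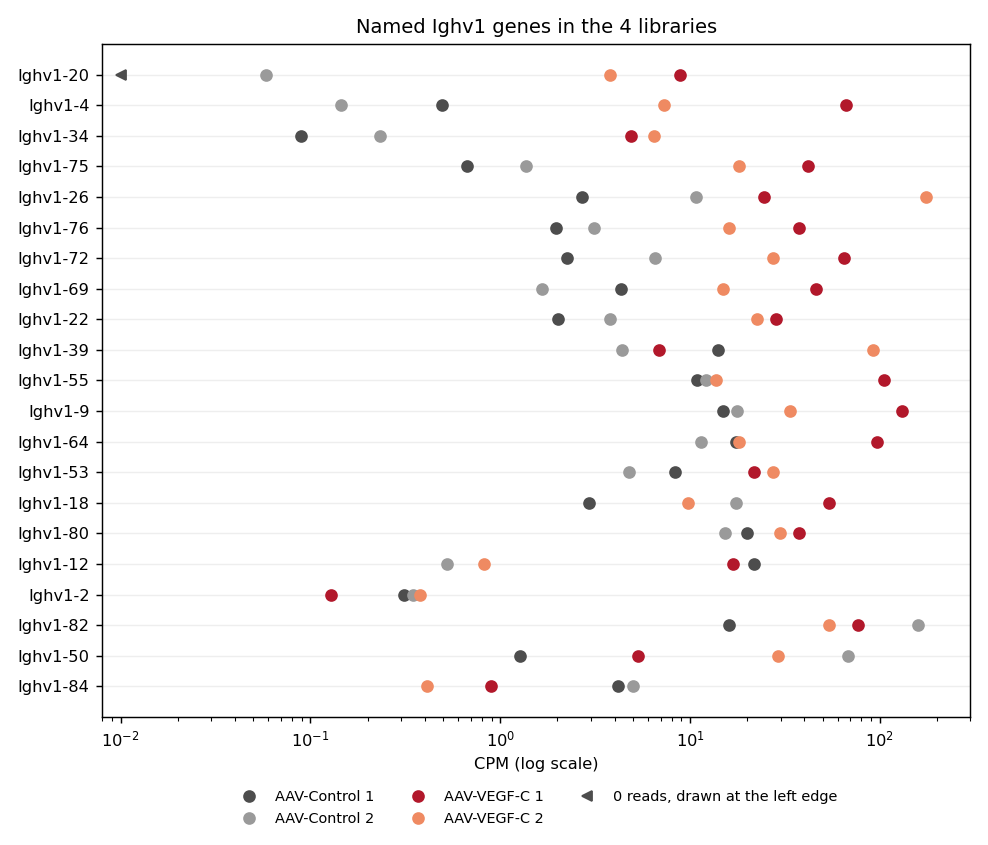
CPM (log scale) of the 21 named Ighv1 genes in each library, ordered by fitted log2 fold change. The AAV-VEGF-C points lie right of the AAV-Control points for Ighv1-75, Ighv1-22, Ighv1-34, Ighv1-20, and others at the top, lie left of them for Ighv1-84, and are mixed for Ighv1-82, Ighv1-50, and Ighv1-12.

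Pseudogenes took few reads. The 39 annotated Ighv1 pseudogenes held 0.171% and 0.237% of the Ighv1 reads in AAV-Control and 0.358% and 0.153% in AAV-VEGF-C, and the groups overlap. Ighv1-62 had the most, with 2, 1.01, 82.1, and 2.02 reads, nearly all in AAV-VEGF-C 1, and its nearest relative is Ighv1-55, the functional gene that was also highest in that library. Ighv1-2, the only tested pseudogene, had 14, 12, 5.01, and 12.0 reads, with no separation of the groups.

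Reads of near-identical members may be divided between them by a counting program, and the program used here is not known. Of the 55 kept genes, 41 had at least 1 value that was not a whole number, and their nearest relative was 96.7% identical in the median, against 89.7% for the 14 with whole numbers. The V exons of Ighv1-62-2 and Ighv1-71 are identical. Ighv1-62-2 had 213, 20.6, 270, and 19 reads, and Ighv1-71 had 286, 16.4, 293, and 0. Their sum, 499, 37, 563, and 19 reads, is firmer than either value, and it was high in the first and low in the second library of both groups.

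By position, the 27 kept members nearest to the D, J, and constant segments held 42.4% and 33.4% of the Ighv1 reads in AAV-Control and 37.9% and 63.2% in AAV-VEGF-C. The ranges overlap (p = 0.667, exact two-sided permutation test). AAV-VEGF-C 2 was the high library, and its leading genes Ighv1-26 and Ighv1-39 both lie in the nearer group.

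**Figure D5:**
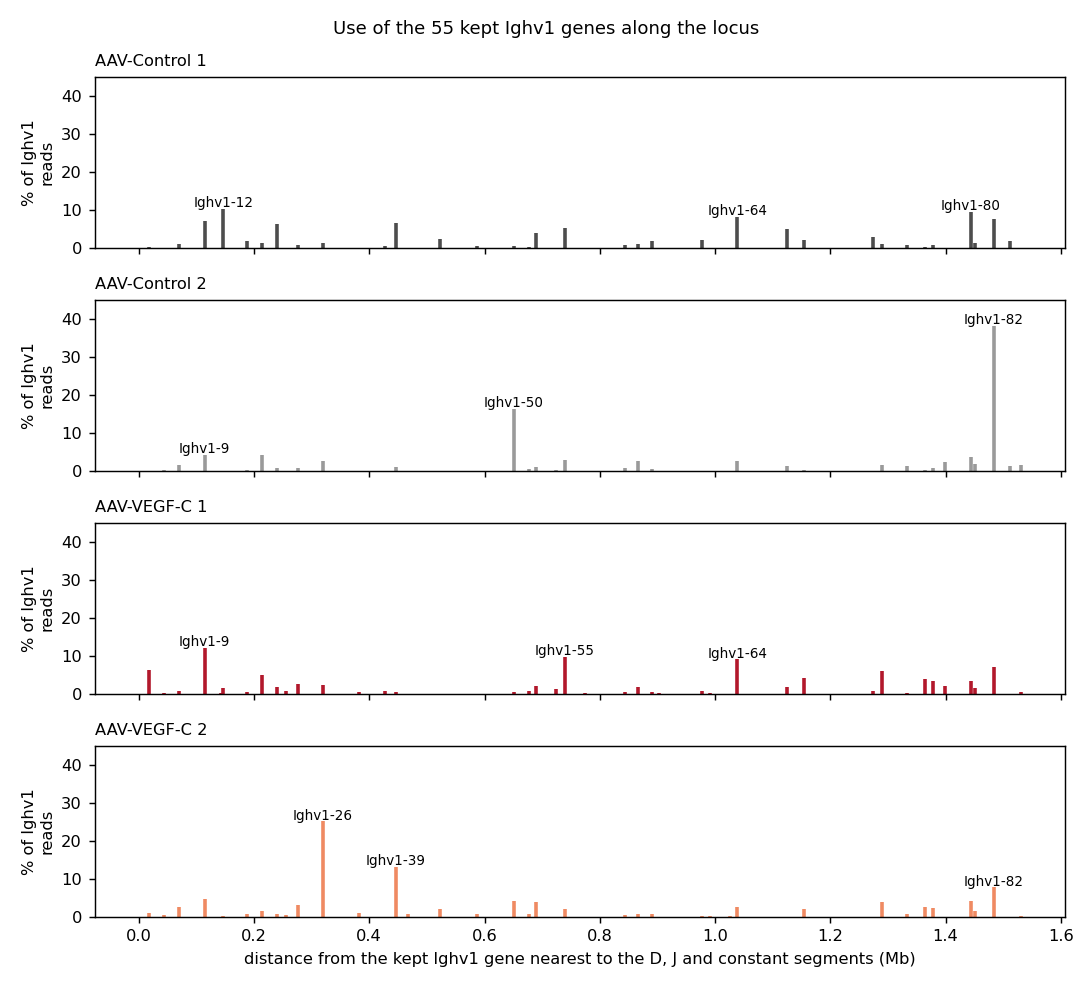
Percentage of the Ighv1 reads of each library that came from each of the 55 kept genes, placed by distance (Mb) from the kept gene nearest to the D, J, and constant segments. The tall bars stand at different genes in each library, Ighv1-82 (38.3%) at the far end in AAV-Control 2 and Ighv1-26 (25.1%) on the near side in AAV-VEGF-C 2.

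Genes that work with a rearranged V segment, and genes of other cell types, were read from lists chosen with earlier results of these data known. The 33 tested heavy variable genes of other families had a median of 1.53 on the log2 scale, with 28 above 0. At an unadjusted p under 0.05, 14 of them were higher (1.46% of all genes tested) and 0 were lower (1.18%). Of the 7 tested heavy constant genes, which set the antibody class, 4 were higher at that threshold (1.46% of all genes) and 0 were lower (1.18%). Igha, the constant region of IgA, was at 436 and 473 CPM in AAV-Control and 1144 and 1215 CPM in AAV-VEGF-C. Its log2 fold change was 1.38 (SE 0.16; adjusted p = 0.331, edgeR quasi-likelihood, Benjamini-Hochberg). Ighm, that of IgM, was at 810, 2087, 1946, and 2165 CPM, with overlapping groups.

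A pair of class genes differed widely between the AAV-Control libraries. Ighg1, the constant region of IgG1, was at 77.4 and 0.232 CPM in AAV-Control and 864 and 1470 CPM in AAV-VEGF-C. Ighg3, that of IgG3, was at 0.0223 and 274 CPM in AAV-Control and 435 and 681 CPM in AAV-VEGF-C. Each of these was near 0 in a different control library.

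The 20 plasma cell genes listed had a median of 0.41 on the log2 scale, with 15 above 0 and 5 below 0. At an unadjusted p under 0.05, 5 were higher (1.46% of all genes tested) and 0 were lower (1.18%). They summed to 1223 and 1289 CPM in AAV-Control and 1797 and 1796 CPM in AAV-VEGF-C, and much of that gap came from Jchain. Jchain, which joins IgA and IgM into polymers, was at 261 and 268 CPM against 671 and 679 CPM, with a log2 fold change of 1.35 (SE 0.16; adjusted p = 0.331, edgeR quasi-likelihood, Benjamini-Hochberg). The B cell genes had a median of −0.36 on the log2 scale. At an unadjusted p under 0.05, 0 of these 20 genes were higher (1.46% of all genes tested) and 2 were lower (1.18%). Their sum was 716 and 1506 CPM in AAV-Control and 802 and 891 CPM in AAV-VEGF-C, highest in the control library in which Ighv1-82 led.

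The genes of V(D)J recombination and B cell precursors had a median of −0.52 over 13 tested genes. At an unadjusted p under 0.05, 0 of them were higher (1.46% of all genes tested) and 2 were lower (1.18%). Rag1, which cuts the V segments, was at 14.6 and 43.0 CPM in AAV-Control and 2.97 and 8.51 CPM in AAV-VEGF-C. The 10 germinal center genes had a median of −0.06, with 0 past that threshold in either direction. Of the 15 genes of other leukocytes, 1 was higher (1.46% of all genes tested) and 2 were lower (1.18%) at that threshold. Of the 12 stromal and endothelial genes, 0 were higher (1.46%) and 5 were lower (1.18%). The part of these cell types in the Ighv1 levels was not tested.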

How the data were processed

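RNA of dural CD45+ cells was measured in 2 AAV-Control and 2 AAV-VEGF-C libraries, grouped by the treatment in the sample labels and numbered by experiment. For every gene the authors deposited an estimated count, not normalized (8.18% of values were not whole), and a TPM value. A stranded SMARTer kit for picogram amounts of total RNA was used, and the submitters' processing notes name FastQC, Trimmomatic, DRAGEN, Picard, and mm10. The counting step and annotation are not given in the sources used here.

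Estimated counts were rounded and fitted over the whole table in R 4.3.3 by edgeR 4.0.16 (quasi-likelihood test with glmQLFit defaults, TMM, filterByExpr, 19806 of 55401 genes, no covariate, Benjamini-Hochberg threshold 0.05). SEs were obtained as the absolute log2 fold change over the square root of F. Alternatives were DESeq2 1.42.0 on every gene with a read, a setting chosen after a run on the genes edgeR tested had been seen, limma 3.58.1 (voom, and log2(TPM + 1) or log2(TPM + 0.1)), the likelihood ratio test, other filters and scalings, a replicate block, and leaving out each library. The test code was tried on simulated data. Shares per library were compared by an exact two-sided permutation test. The CPM values use TMM-scaled library sizes (factors 0.965, 1.03, 1.03, and 0.976). Coordinates and V exons are from GENCODE M21 (GRCm38), and the loops were placed by codon number after checking the conserved cysteine and tryptophan codons.

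Genes were named by rule: the 10 with the highest mean CPM, the 3 most used of each library, the 10 with the smallest p, the 5 with the largest fall, and Ighv1-72 and Ighv1-82. The near-identical relatives Ighv1-37, Ighv1-62-3, Ighv1-7, Ighv1-62, Ighv1-62-2, and Ighv1-71 were added after their values were seen. The members and lists were chosen with earlier results of these data known.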

Additional observations from a re-analysis of the deposited data

How the results depend on the processing

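The median log2 fold change of the members tested was above 0 in every alternative run, from 1.02 (without AAV-VEGF-C 1) to 2.82 (without AAV-Control 2), over 27 to 72 members since the filters admit different sets. The number with an adjusted p under 0.05, 0 in the edgeR quasi-likelihood test, was also 0 with limma-voom, TPM, RLE factors, library sizes without immunoglobulin genes, the newer glmQLFit, and a minimum of 10 reads in every library. It was 9 with DESeq2 (77 over all genes), 11 with DESeq2 on the genes edgeR tested (72; added after the data had been seen), 12 with the likelihood ratio test (56), 23 with no filter (268), and 0 to 30 when a library was left out (2 to 2058), where a lone library is assumed to vary like the others. The number with an unadjusted p under 0.05, 19 (523 over all genes), was 37 with no filter (1327), and 36, 35, 18, and 30 without AAV-Control 1, AAV-Control 2, AAV-VEGF-C 1, and AAV-VEGF-C 2 (1728, 6467, 164, and 525). The cause was not tested.

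In the fit with a replicate block for the experiment number, the adjusted count was 3 (11 over all genes), the unadjusted count 23 (525), and the median 1.65. Deviations from the group mean were only weakly correlated between same-numbered libraries (r = −0.134). With 2 libraries per group, crossing the numbers only turns the sign of r, so r cannot decide the pairing. A crossed pairing, added after the data had been seen, gave 8 (54), 27 (637), and 1.67. In it, Ighv1-26, Ighv1-4, and Ighv1-69, the 3 members of the block fit, had adjusted p of 0.926, 0.0719, and 0.254 (edgeR quasi-likelihood, Benjamini-Hochberg). The labels do not say that a number marks a shared batch, and the column names of the tables number the libraries differently from the titles, so the pairing of pools is uncertain. The same-numbered differences in the share of all reads were 0.0253 and 0.0900 points.

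The difference in the share of all reads was 0.189 points in TPM and 0.0368 to 0.0785 points when a library was left out. The difference in the share of heavy variable reads ranged from −3.42 to 8.13 points (−3.42 without AAV-Control 1, −1.94 without AAV-VEGF-C 1), that in the effective number from −1.27 to 8.78, and that in detected members from 4 to 25. Of the 21 named genes, 15 kept their direction in every alternative that tested them (Ighv1-20, Ighv1-34, and Ighv1-4 fell below the minimum of 10 reads in every library). Ighv1-82, Ighv1-50, and Ighv1-12 reversed to 0.43, 0.60, and 0.038 with limma-voom, 0.34, 0.26, and 0.038 with the block, and 0.34, 0.26, and 0.055 with the crossed block. In log2(TPM + 1) Ighv1-82 and Ighv1-50 were at 0.18 and 0.064, and in log2(TPM + 0.1) at 0.19 and 0.14. Leaving out a library reversed Ighv1-12 (4.05 without AAV-Control 1, 0.60 without AAV-VEGF-C 2; range from −3.76), Ighv1-82 (2.04 without AAV-Control 2; from −1.30), Ighv1-50 (3.76 without AAV-Control 2; from −2.67), Ighv1-18 (−0.034 without AAV-VEGF-C 1; up to 3.44), Ighv1-2 (0.20 without AAV-VEGF-C 1; from −1.34), and Ighv1-39 (−0.43 without AAV-VEGF-C 2; up to 3.49). With 2 pools per group, 1 pool can set a member's mean.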
